A study of Camelus dromedarius with 4 samples.

Results

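The mitochondrial ribosomal protein genes of the dromedary camel were examined in the supraoptic nucleus in winter and in summer. A gene was taken as a member when its symbol in the authors' table of season means began with MRPL or MRPS followed by a digit and both season means were given. This rule gave 69 genes of the 16053 symbols with both means, 43 named for the large subunit (MRPL) and 26 named for the small subunit (MRPS). Another 7 symbols of the family were listed without means (MRPL10, MRPL34, MRPL35, MRPL55, MRPS17, MRPS18A and MRPS21) and were not analysed here. The members were chosen by name and not by any measured value.

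The mitochondrial ribosome translates the few proteins that the mitochondrial genome encodes, all of them subunits of the respiratory chain and of ATP synthase. Its RNAs come from the mitochondrial genome, whereas every one of its proteins is encoded in the nucleus, made in the cytosol and imported. Part of the proteins are homologues of bacterial ribosomal proteins, and the others were added during the evolution of mitochondria. Neurones rely on oxidative phosphorylation, and the magnocellular neurones of the supraoptic nucleus make and secrete the peptide hormones vasopressin and oxytocin.

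The study compared adult, age-matched male camels of the Tergui breed, all fully hydrated, that were slaughtered in winter or in summer. The winter group was 2 libraries (replicates 2 and 3) and the summer group 2 libraries (replicates 1 and 2), made from dissected tissue as stranded total RNA after removal of cytoplasmic and mitochondrial ribosomal RNA. The winter and summer animals were slaughtered at different places on a single date each, so season, place and date cannot be told apart. The study counted 2 camels in each season for sequencing.

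Each library held 4379162 to 6902037 reads on gene models, which was 20.7% to 27.8% of its tallied alignments. The gene models of the count files carry no symbols, so all values of named genes came from the authors' season means, in normalised read counts (reads divided by the size factor of the library). Each mean is an average over both libraries of a season, and the whole reads of each library were recovered from it where only 1 pair of whole numbers gave that mean. This was possible in both seasons for 54 members, and the other 15 had 2 or 3 possible pairs in winter. The recovered reads do not name the replicate, so libraries A and B of a season are named by descending size factor, 1.33 and 0.946 in winter and 0.922 and 0.877 in summer. Summer library A stood apart, with 0 reads for 869 of the 9089 single-solution symbols that had over 10 reads in all, against 52 to 82 in the other 3 libraries. Each of the 53 members with over 10 reads had at least 1 read in every library. For part of the results, values without summer library A are given as well. Not given without it are the counts of non-overlapping libraries, several single genes and the comparisons with other gene families. Oxytocin (OXT) had means of 592 in summer and 621 in winter and prodynorphin (PDYN) 127 and 35.9, so 2 markers of magnocellular neurones were present, and the pituitary hormone genes POMC, GH1 and PRL were also above 10 in both seasons.

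The first question was whether the family as a whole stood at another level in winter than in summer. With a season mean of 10 or more, 67 of the 69 members could be compared, and their median log2 ratio of the winter to the summer mean was -0.10 (interquartile range -0.31 to 0.11). In 40 members the winter mean was below the summer mean, and in 27 it was above it. The median over all 13811 symbols with such a mean was -0.04, and 53.8% of them had a lower winter mean, against 59.7% of the members. Between single libraries of the 2 seasons, the members' median went from -0.26 to 0.09 over the 4 possible pairs, with an SD of 0.15, so it lay on both sides of 0. Centred on the median of all symbols it was -0.07, with 31 members above 0 and 36 below. The sum over all members was 7236 normalised reads in summer and 6713 in winter. In bulk tissue, fewer cells of a type and less RNA per cell cannot be told apart.

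Most members were close to their summer level. In 83.6% of the 67 members the season means lay within 1.5-fold of each other, compared with 77.7% of all symbols, and in 20 members they lay within 1.1-fold. Over 1.5-fold higher in winter were 5 members, namely MRPL4, MRPL38, MRPS11, MRPS2 and MRPL16, where 10.1% of all symbols passed the same limit. Over 1.5-fold lower in winter were 6 members, namely MRPL40, MRPL52, MRPS14, MRPL41, MRPL28 and MRPL24, where 12.1% of all symbols did. Only MRPL4 passed 2-fold, at 2.90-fold higher in winter. The shares of the members were therefore no larger than the background on either side.

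**Figure D1:**
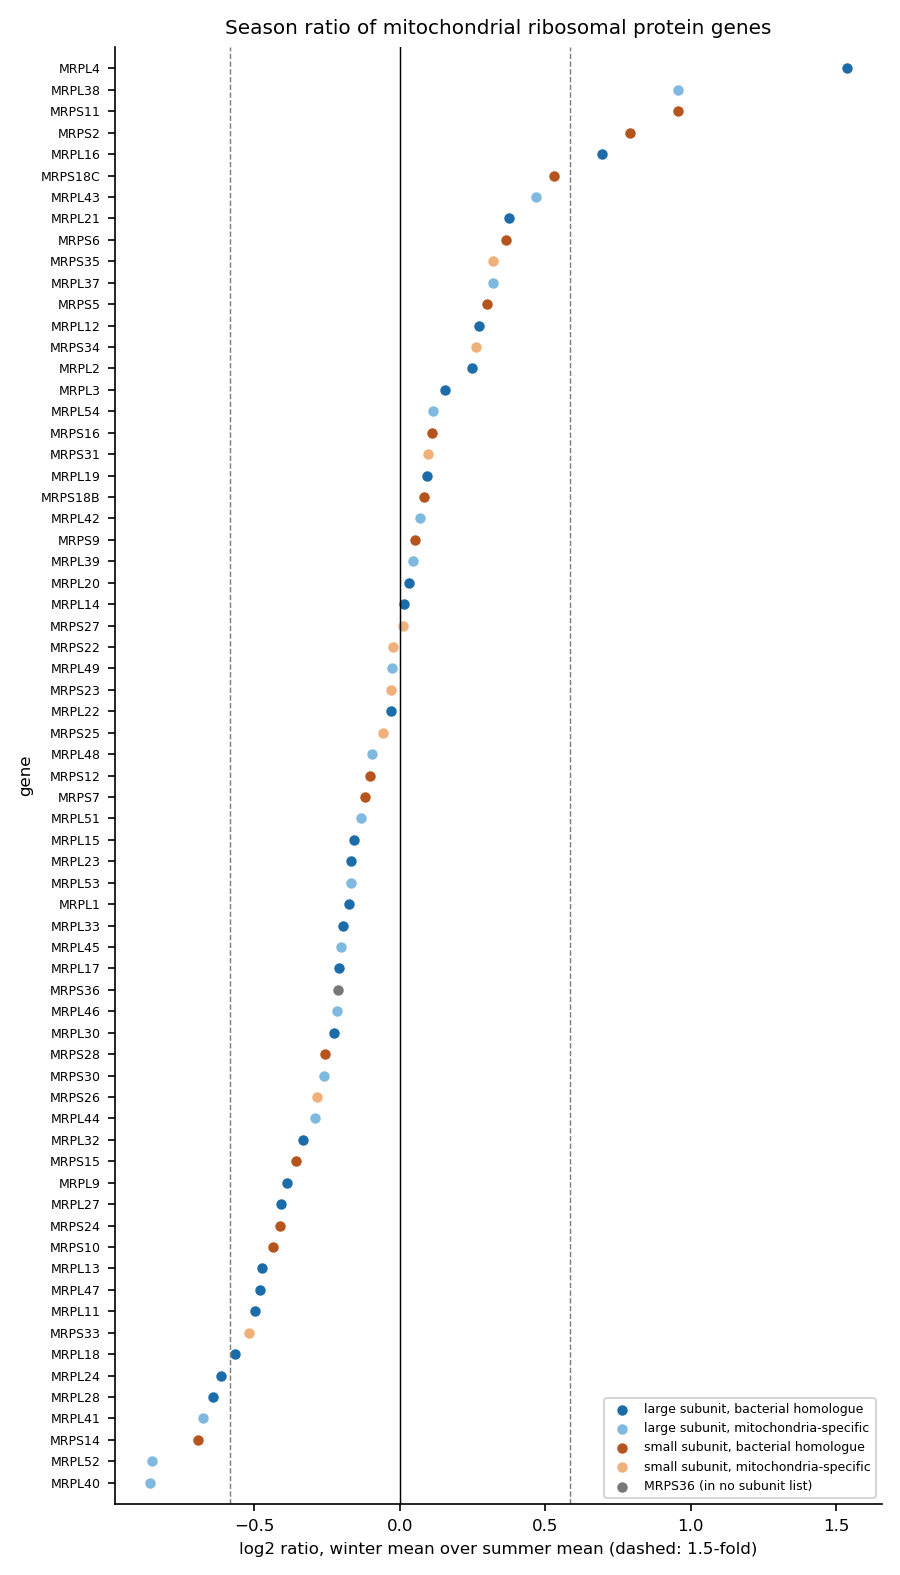
Season ratio of the 67 members with a season mean of 10 or more. Each point is 1 gene, the horizontal axis is the log2 ratio of the winter to the summer mean of normalised reads, dashed lines mark 1.5-fold, and colours give the subunit list. The points run from -0.86 (MRPL40) to 1.54 (MRPL4), with 5 beyond the right line and 6 beyond the left one.

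The season difference was then tested per gene by a quasi-likelihood fit in edgeR to the recovered reads of 7659 symbols, 52 of them members. At an unadjusted p of 0.05, 1 member passed (MRPL38), where 1.98% of all tested symbols did. Past the rule of the study (over 2-fold and an unadjusted p of 0.05) were 0 members, against 1.67% of all symbols. By edgeR's quasi-likelihood test with Benjamini-Hochberg adjustment, 0 members and 0% of all symbols passed an adjusted p of 0.05, and the lowest adjusted p of a member was 0.982. At an unadjusted p of 0.05 edgeR's exact test called 1 member and 123 of the 7659 symbols. DESeq2 called 0 members and 65 of the 7659 symbols at that limit. At an adjusted p of 0.05 each called 0 members and 1 symbol. With a library left out, the number past the rule of the study in edgeR's test was 1 without winter library A (MRPL28), 0 without winter library B, 1 without summer library A (MRPL52) and 4 without summer library B (MRPL4, MRPL38, MRPS11 and MRPS34), while the calls over all symbols went from 128 to 35, 50, 1109 and 1157. In these fits the lone library was assumed to vary like the pair of the other season. The standard error of the log2 fold change was 0.32 at the lowest (MRPL47), 0.44 at the median and 0.96 at the highest (MRPL20), so with 2 libraries a season a difference of the size seen in most members was not detectable. None of the 15 members with several solutions reached an unadjusted p of 0.05 under any of its solutions in the same edgeR fit, the lowest being 0.194 for MRPL24.

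MRPL38, a mitochondria-specific protein of the central protuberance of the large subunit, was the member that passed the unadjusted threshold. Its normalised reads were 106 in winter A, 97.3 in winter B, 43.4 in summer A and 61.6 in summer B, so both winter libraries were above both summer libraries. The log2 fold change (winter over summer) was 0.96 ± 0.38 (SE), which is under 2-fold, with an unadjusted p of 0.0362 and an adjusted p of 0.982 in edgeR's quasi-likelihood test. The unadjusted p was 0.177 without winter library A, 0.119 without winter library B, 0.122 without summer library A and 0.0135 without summer library B in the same edgeR test. The log2 fold change stayed between 0.73 and 1.23 over these fits. Under total-count scaling it was 1.07 and under size factors recomputed by DESeq2's method 1.01, so that the gene passed the 2-fold rule as well.

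MRPL4 and MRPS11 were also high in winter, with few reads and uneven pairs of libraries. MRPL4, a homologue of a bacterial protein that lines the inner part of the exit tunnel, had 28.7 in winter A, 10.6 in winter B, 3.25 in summer A and 10.3 in summer B. The lower winter library lay only just above the higher summer library, and the log2 fold change was 1.59 ± 0.94 (SE) with an unadjusted p of 0.131 in edgeR's test. It was 2.59 without summer library B (unadjusted p = 0.016, edgeR) and 0.96 without summer library A. MRPS11, a homologue of a platform protein of the small subunit, had 12.8 in winter A, 20.1 in winter B, 2.17 in summer A and 14.8 in summer B. There the seasons overlapped, and summer library A held 2 reads of the gene where summer library B held 13. The log2 fold change of MRPS11 was 0.93, but 0.13 without summer library A and 2.84 without summer library B (unadjusted p = 0.0198, edgeR).

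MRPS2 and MRPL16 had tighter pairs. MRPS2, the homologue of a protein on the solvent side of the bacterial small subunit, had 51.3 in winter A, 41.2 in winter B, 23.9 in summer A and 29.6 in summer B. Its log2 fold change was 0.80 ± 0.51 (SE), between 0.62 and 0.96 with a library left out. MRPL16, whose bacterial counterpart lies next to the aminoacyl-tRNA site, had 34.7 in winter A, 33.8 in winter B, 19.5 in summer A and 22.8 in summer B. Its log2 fold change was 0.70 ± 0.58 (SE), between 0.59 and 0.81 with a library left out. In both genes the seasons did not overlap, and neither passed an unadjusted p of 0.05 in edgeR's test (0.161 for MRPS2 and 0.264 for MRPL16).

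At the low end stood MRPL40, a mitochondria-specific protein that, like MRPL38, belongs to the central protuberance. Its normalised reads were 34.0 in winter A, 24.3 in winter B, 52.1 in summer A and 53.6 in summer B. The pair of summer values was tight and above both winter libraries, and the log2 fold change was -0.84 ± 0.48 (SE) with an unadjusted p of 0.123 in edgeR's test. MRPS14, the homologue of a protein in the head of the bacterial small subunit, had 48.3 in winter A, 34.9 in winter B, 64.0 in summer A and 70.7 in summer B. It too did not overlap between the seasons, with a log2 fold change of -0.68 ± 0.42 (SE). With a library left out, the fold changes stayed between -1.11 and -0.64 for MRPL40 and between -0.94 and -0.48 for MRPS14.

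In 3 further members low in winter, the difference depended on single libraries. MRPL41, a mitochondria-specific protein of the large subunit, had 43.0 in winter A, 12.7 in winter B, 43.4 in summer A and 45.6 in summer B. Winter library A was thus near the summer level, and the log2 fold change went from -0.62 to -0.05 without winter library B and to -1.80 without winter library A. MRPL28, a homologue of a bacterial large subunit protein, had 86.0 in winter A, 20.1 in winter B, 58.6 in summer A and 107 in summer B. Its log2 fold change was -0.60, turned to 0.06 without winter library B, was -0.12 without summer library B, and was -2.03 without winter library A (unadjusted p = 0.0397, edgeR) and -0.99 without summer library A (unadjusted p = 0.0479, edgeR). MRPL52, another mitochondria-specific large subunit protein, had 37.7 in winter A, 20.1 in winter B, 32.5 in summer A and 71.8 in summer B. Here summer library B was the high one, and the log2 fold change of -0.81 became -0.15 without it and -1.29 without summer library A (unadjusted p = 0.0221, edgeR).

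**Figure D2:**
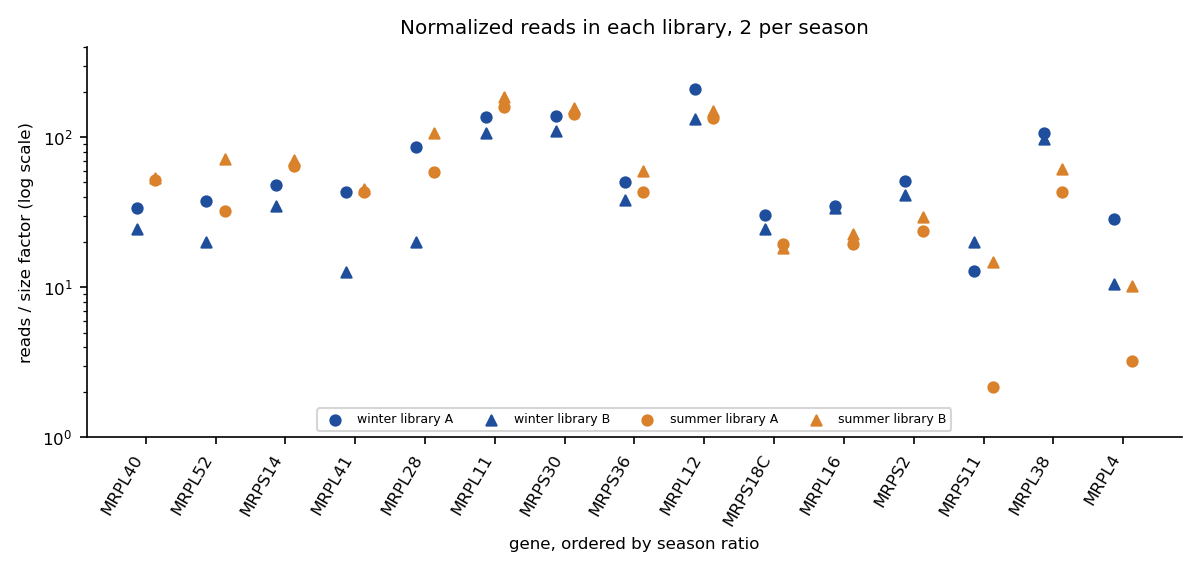
Normalised reads of the named members in each of the 4 libraries. The vertical axis is reads divided by the size factor on a log scale, blue is winter, orange is summer, circles are library A and triangles library B, and genes run from the lowest to the highest season ratio. MRPS18B, with several solutions, is not shown. MRPL38 had 106 and 97.3 in winter against 43.4 and 61.6 in summer, while MRPS11 had 1 summer library at 2.17 and MRPL28 and MRPL41 had 1 winter library at 20.1 and 12.7.

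Without a dispersion estimate, the order of the 4 libraries gives a plain count. In 8 of the 52 members both winter libraries were above both summer libraries (13.3% of all tested symbols), namely MRPS16, MRPL37, MRPS6, MRPS18C, MRPL16, MRPS2, MRPL38 and MRPL4. In 11 members both were below (17.2% of all tested symbols), namely MRPL40, MRPS14, MRPL41, MRPL18, MRPS33, MRPL11, MRPL47, MRPS10, MRPL27, MRPS15 and MRPS30. Under total-count scaling the split was 9 above and 7 below, and under TMM (trimmed mean of M values) factors it was 7 above and 9 below. Under each of these scalings 29.3% of all tested symbols did not overlap in either direction. Among these, MRPL18, which in mammalian mitochondria sits with the structural RNA of the central protuberance, had 137 in winter A, 114 in winter B, 181 in summer A and 191.5 in summer B. MRPS33, a mitochondria-specific protein of the small subunit, had 84.5 in winter A, 82.5 in winter B, 133 in summer A and 106 in summer B. MRPL47, the homologue of a protein at the exit of the peptide tunnel, had 128 in winter A, 139 in winter B, 192 in summer A and 179 in summer B. In each of these 3 the winter values lay below both summer values by more than the winter pair lay apart. MRPS10 had 95.8 in winter A, 163 in winter B, 171 in summer A and 179 in summer B, where the wide winter pair reached close to the summer level, and MRPS16 had 37.0 in winter A, 33.8 in winter B, 33.6 in summer A and 31.9 in summer B, so that not overlapping meant a difference of few reads.

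The members were next read by their place in the ribosome. Of the large subunit proteins with a bacterial homologue, 9 of 25 were higher in winter and 16 lower, at a median log2 ratio of -0.175. Of the mitochondria-specific large subunit proteins, which include MRPS30 in spite of its name, 6 of 17 were higher and 11 lower, at a median of -0.135. In the small subunit, 8 of 15 bacterial homologues were higher at a median of 0.05 and 4 of 9 mitochondria-specific proteins at a median of -0.03, which turned to 0.01 when centred on all symbols. The difference between the subunits was not tested, and single libraries moved the medians of the genes with single solutions. For the 11 bacterial homologues of the small subunit the median was -0.10 with all libraries, -0.19 without summer library A, 0.235 without summer library B, 0.17 without winter library B and -0.05 without winter library A. For the 5 mitochondria-specific small subunit genes it was -0.03 with all libraries, -0.33 without summer library A (1 of 5 higher), -0.195 without summer library B, 0.08 without winter library B and -0.17 without winter library A. For the 15 mitochondria-specific large subunit genes it was -0.17 with all libraries and between -0.19 (without summer library B) and -0.01 (without summer library A, 7 of 15 higher). For the 20 bacterial homologues of the large subunit it was -0.17 and between -0.24 and -0.06. As background here and for the site lists below, the median of all tested symbols was -0.12 with all libraries. That background went from -0.18 (without winter library A) to 0.12 (without summer library B). None of these classes had a tested member past the rule of the study, and only the mitochondria-specific large subunit class held a member past an unadjusted p of 0.05 in edgeR's test, namely MRPL38.

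The 9 mitochondria-specific small subunit genes had the narrowest spread of the classes, from -0.52 (MRPS33) to 0.32 (MRPS35) on the log2 scale, and 0 of them passed 1.5-fold. They were also the smallest class, and a range narrows with fewer genes. The width of their interquartile range was 0.15, against 0.33 to 0.64 in the other classes. Their median summer mean was the highest, at 137 against 54.6 to 98.6. The part of read level in this spread was not tested. MRPS22, a mitochondria-specific protein with the highest winter mean of the family, had means of 367 (summer) and 361 (winter). MRPS27, a pentatricopeptide repeat protein, had 106 in winter A, 95.2 in winter B, 115 in summer A and 84.3 in summer B and a log2 ratio of 0.01. MRPS34, needed for a stable small subunit, had 82.2 in winter A, 48.6 in winter B, 27.1 in summer A and 82.1 in summer B. The higher libraries of both seasons were alike and summer library A was the lowest, at a log2 ratio of 0.26 between the season means. The fitted log2 fold change of MRPS34 was -0.32 without summer library A, 1.28 without summer library B, -0.16 without winter library A and 0.595 without winter library B. MRPS26 had 184 in winter A, 82.5 in winter B, 157 in summer A and 168 in summer B, with the widest winter pair among the 5 genes of the class with single solutions. Among the bacterial homologues of the small subunit, MRPS12, part of the decoding centre, had 55.8 in winter A, 28.6 in winter B, 32.5 in summer A and 58.1 in summer B and a log2 ratio of -0.10, and MRPS5, at the messenger RNA entry, had means of 228 (summer) and 280.4 (winter).

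Within the large subunit, the lists of functional sites went both ways. Of 5 proteins near the peptidyl transferase centre, where peptide bonds are made, or the start of the exit tunnel, 4 were higher in winter (MRPL2, MRPL3, MRPL4 and MRPL16) and 1 lower (MRPL27), at a median log2 ratio of 0.25. With a library left out, the count higher in winter was 3 or 4 of 5 and the median went from 0.08 (without summer library B) to 0.495 (without summer library A). MRPL2 had 136 in winter A, 98.4 in winter B, 111 in summer A and 86.6 in summer B and MRPL3 46.8 in winter A, 59.2 in winter B, 57.5 in summer A and 37.6 in summer B, and both overlapped between the seasons. MRPL27 had 101 in winter A, 87.8 in winter B, 137 in summer A and 114 in summer B, with both winter libraries lower. The 7 genes of the peptide exit tunnel list had lower winter means (MRPL17, MRPL22, MRPL23, MRPL24, MRPL44, MRPL45 and MRPL47), from -0.61 to -0.03 with a median of -0.21, but 1 of them (MRPL22) turned above 0 when centred on all symbols. MRPL4, which was placed in the other list and also lines the tunnel, went the other way at 1.54. Of the 4 with single solutions, 3 or 4 were lower in winter with a library left out, at medians from -0.40 (without summer library A) to -0.14 (without summer library B). MRPL24 had means of 184 (summer) and 119.9 (winter), and MRPL45, which ties the ribosome to the inner membrane, had 37.7 in winter A, 57.1 in winter B, 49.9 in summer A and 59.3 in summer B. No tested gene of either list passed an unadjusted p of 0.05 in edgeR's test.

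The central protuberance, which contacts the transfer RNAs and the small subunit, held members far to both sides of 0. MRPL38 was higher in winter at a log2 ratio of 0.96, whereas MRPL40 (-0.86), MRPL18 (-0.57), MRPL46 (-0.22) and MRPL48 (-0.10) were lower. MRPL46 had 77.0 in winter A, 87.8 in winter B, 113 in summer A and 78.6 in summer B and MRPL48 had 81.5 in winter A, 80.4 in winter B, 95.4 in summer A and 77.5 in summer B, and in both the seasons overlapped. Without summer library A, 3 of the 5 were higher in winter at a median of 0.06, against 1 of 5 at -0.22 with all libraries.

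The flexible L7/L12 stalk recruits the translation factors. MRPL11, at its base, had 137 in winter A, 107 in winter B, 159 in summer A and 185 in summer B. Both winter libraries were lower, with a log2 fold change of -0.49 ± 0.33 (SE). MRPL12, the stalk protein itself, which is also known to bind the mitochondrial RNA polymerase, had 211 in winter A, 133 in winter B, 134 in summer A and 150.5 in summer B. Its log2 fold change was 0.28 ± 0.36 (SE) but turned to -0.10 without winter library A, which was the highest of the 4. Thus 1 of the 2 measured stalk genes was above and 1 below the summer level, and neither passed an unadjusted p of 0.05 in edgeR's test (0.178 for MRPL11 and 0.461 for MRPL12).

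Mammals have 3 paralogues of the bacterial protein S18, of which MRPS18A is built into the large subunit. MRPS18C had 30.2 in winter A, 24.3 in winter B, 19.5 in summer A and 18.2 in summer B. Both winter libraries were higher, at a log2 fold change of 0.54 ± 0.62 (SE) and an unadjusted p of 0.415 in edgeR's test. MRPS18B had means of 192 (summer) and 204 (winter), a log2 ratio of 0.08, and 2 possible pairs of winter reads. The other named exceptions were MRPS30, a mitochondria-specific protein of the large subunit, and MRPS36, now known as a subunit of the 2-oxoglutarate dehydrogenase complex and not of the ribosome. MRPS30 had 138 in winter A, 111 in winter B, 142 in summer A and 156 in summer B and a log2 fold change of -0.26 ± 0.33 (SE). MRPS36 had 50.6 in winter A, 38.1 in winter B, 43.4 in summer A and 59.3 in summer B, a log2 fold change of -0.20 ± 0.46 (SE) that turned to 0.04 without summer library B, and overlapping seasons.

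**Figure D3:**
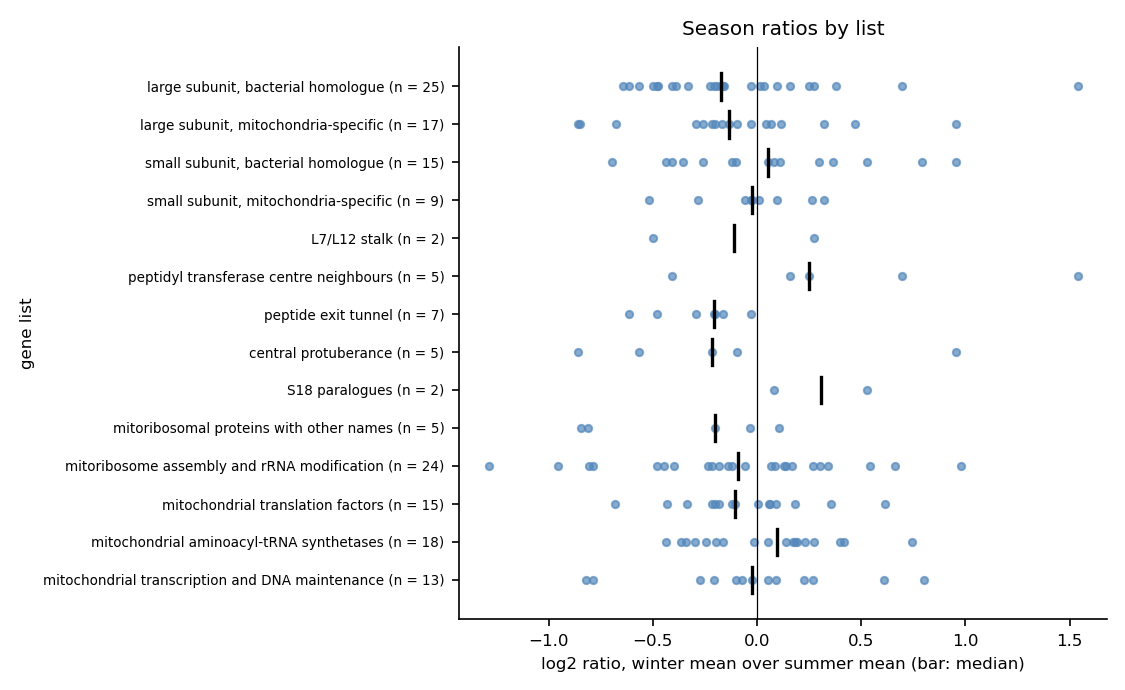
Season ratios by list, with each point 1 gene with a season mean of 10 or more, the horizontal axis the log2 ratio of the winter to the summer mean, and the black bar the median of the list. The 7 genes of the exit tunnel list lie left of 0, MRPL22 by less than the median of all symbols, while MRPL4, a tunnel protein placed in the peptidyl transferase list, lies at 1.54, and 4 of 5 genes near the peptidyl transferase centre lie right of it.

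Levels differed widely between members, but gene lengths were not used here, so the order below is one of reads and not of transcript abundance. In summer the means went from 1.14 (MRPL50) through a median of 94.7 to 370.4 (MRPS28), and in winter from 3.17 (MRPL50) through 81.7 to 361 (MRPS22). At least 100 normalised reads were reached by 30 members in summer and by 29 in winter. Below the minimum of 10 in both seasons were MRPL36, the homologue of the smallest bacterial large subunit protein, and MRPL50. MRPL36 had 12.8 in winter A, 5.29 in winter B, 6.51 in summer A and 4.56 in summer B, and MRPL50 had 5.28 and 1.06 in winter and 0 and 2.28 in summer. The 0 in summer library A allows up to 3 reads, which covers counting error only.

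The spread between the libraries of 1 season set the scale of all these differences. Over the 52 members with single solutions, the median absolute log2 ratio of winter library A to B was 0.315, that of summer library A to B 0.418, and that of the season means 0.279. The season ratio of a typical member was thus no larger than the ratios within a season. It compared means of 2 libraries, however, whereas the ratios within a season compared single libraries. Averaging narrows a ratio, so this order alone does not show that a season difference was absent. For the 6664 other symbols with reads in every library and in the same range of means (12.02 to 159.2 normalised reads), the values were 0.417 within winter, 0.603 within summer and 0.355 between the seasons. In 13 of the 52 members the season ratio was larger than both ratios within a season, as it was in 1437 of the 7360 tested symbols with reads in every library.

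Inside winter, most members leaned the same way. Winter library A was above winter library B in 40 of 52 members and in 3598 of the 6664 other symbols in that range. The median log2 ratio was 0.25 for the members and 0.06 for the others. The number of members was 36 under TMM factors and 35 under total counts. This lean was not particular to the members. The median was 0.35 over 26 respiratory chain subunits and 0.445 over 4 mitoribosomal proteins with other names. It was 0.08 over 20 assembly factors, -0.16 over 8 mitochondrial translation factors and -0.10 over 8 cytosolic ribosomal proteins. All 6 members over 2-fold apart in winter (MRPL4, MRPL28, MRPL41, MRPL43, MRPL53 and MRPS26) were higher in library A. In summer, library A was above library B in 19 of 52 at a median of -0.15 and in 2664 of the 6664 other symbols at a median of -0.22, but in 32 of 52 members under TMM factors or total counts, so that this direction depended on the scaling. Of the 6 members over 2-fold apart in summer (MRPL4, MRPL20, MRPL52, MRPL53, MRPS11 and MRPS34), 5 were lower in library A. MRPL20 had 15.8 in winter A, 8.46 in winter B, 3.25 in summer A and 20.5 in summer B, with 3 reads in summer library A, and MRPL53 was the exception with 33.2 in winter A, 15.9 in winter B, 38.0 in summer A and 17.1 in summer B.

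**Figure D4:**
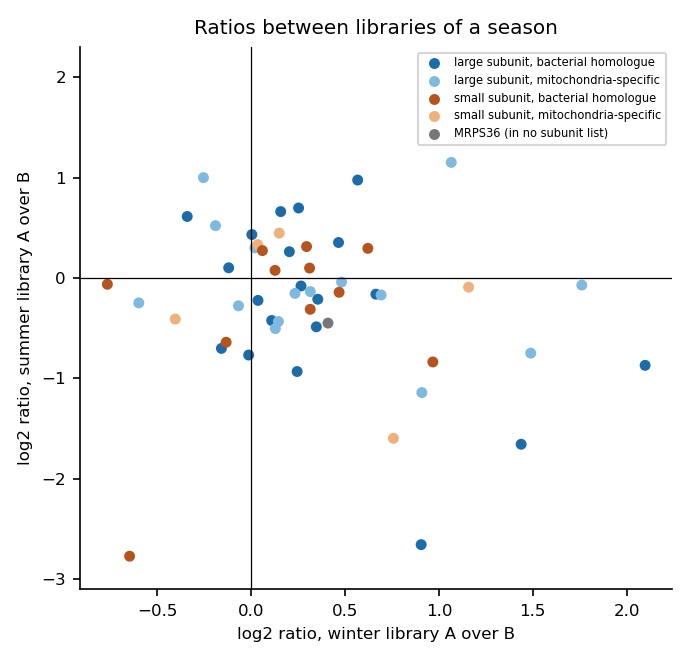
Ratios between the libraries of a season for the 52 members with single solutions. Each point is 1 gene, the horizontal axis is the log2 ratio of winter library A to B and the vertical axis that of summer library A to B, with colours by subunit list. In winter 40 points lie right of 0, and in summer 33 lie below 0, the lowest at -2.77 (MRPS11).

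Proteins of the mitochondrial ribosome that carry other names were read in the same way. Of 7 such genes, 6 had means and 5 a season mean of 10 or more, with 1 higher and 4 lower in winter (2 higher and 3 lower when centred on all symbols). AURKAIP1, a small subunit protein, had 47.5 in winter A, 39.1 in winter B, 74.8 in summer A and 77.5 in summer B, a log2 fold change of -0.80 ± 0.39 (SE) and an unadjusted p of 0.0779 in edgeR's test. PTCD3, a pentatricopeptide repeat protein at the messenger RNA entry, had means of 368 (summer) and 205 (winter), with 2 possible pairs of winter reads. CHCHD1, another small subunit protein, had 101 in winter A, 44.4 in winter B, 93.3 in summer A and 74.1 in summer B, in which winter library B was the low one. GADD45GIP1 and ICT1 of the large subunit, the second of which is a hydrolase that frees stalled peptides, had log2 ratios of -0.03 and 0.10. MRP63 was below 10 in both seasons, with means of 8.38 (summer) and 7.40 (winter).

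The wider machinery of mitochondrial gene expression was read by lists of other proteins. Of 24 factors of mitoribosome assembly and ribosomal RNA modification, 11 were higher and 13 lower in winter at a median log2 ratio of -0.09. The 15 translation factors were 7 higher and 8 lower (median -0.10), the 18 proteins that charge mitochondrial transfer RNAs 10 higher and 8 lower (median 0.10), and the 13 genes of mitochondrial transcription and DNA maintenance 6 higher and 7 lower (median -0.03, or 0.01 when centred on all symbols). Of the 75 genes of these 4 lists and the list of other names, 49 had single solutions and were tested, and 26 (PTCD3 among them) were not. None of the 49 passed an unadjusted p of 0.05 in edgeR's test or the rule of the study, and the lowest unadjusted p of these lists, from edgeR, was 0.063 for MGME1, a nuclease of mitochondrial DNA replication, named after its values were seen.

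As a scale for these values, 2 families of similar size were compared without a test. For cytosolic ribosomal proteins, 63 of 72 genes were lower in winter, at a median log2 ratio of -0.39. For nuclear-encoded subunits of the respiratory chain and ATP synthase, the complexes that mitochondrial ribosomes help to build, 45 of 70 were lower at a median of -0.13. The members, with 40 of 67 lower and a median of -0.10, had a median nearer to that of the respiratory chain than to that of the cytosolic ribosome. Of the 72 cytosolic genes only 8 had single solutions, so the libraries of the others could not be compared. In these 8 the median log2 ratio of library A to B was -0.10 in winter and 0.62 in summer. The summer median was -0.15 for the members and -0.18 for the respiratory chain subunits with single solutions. The part of summer library A in the median of -0.39 was not tested.

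**Figure D5:**
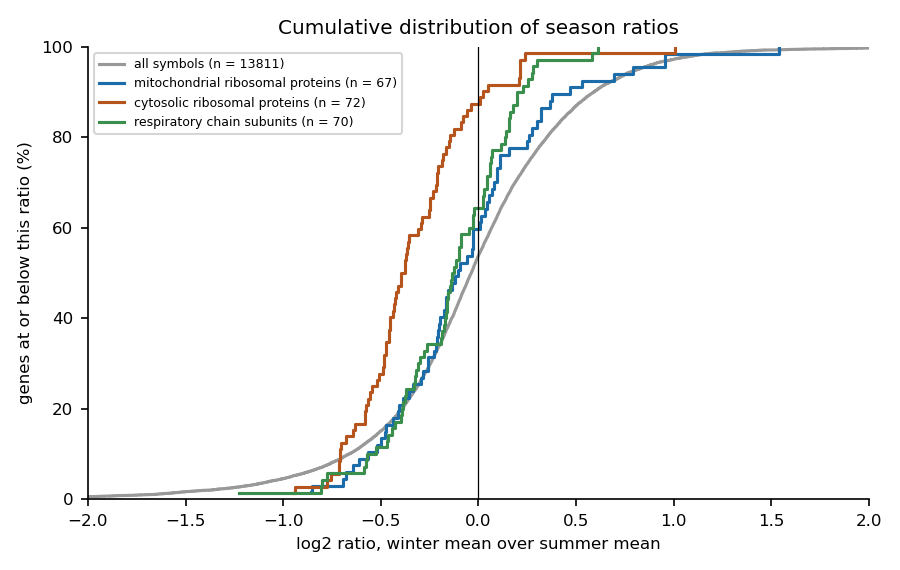
Cumulative distribution of season ratios for the members, cytosolic ribosomal proteins, respiratory chain subunits and all symbols with a season mean of 10 or more. The horizontal axis is the log2 ratio of the winter to the summer mean and the vertical axis the percentage of genes at or below it. At 0 the curves stand at 59.7% for the members, 64.3% for the respiratory chain, 87.5% for cytosolic ribosomal proteins and 53.8% for all symbols.

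Cell type markers differed between the season means as well, with no test made. All 4 neuronal markers (SNAP25, SYT1, RBFOX3 and TUBB3) had higher winter means, summing to 579.5 in summer and 911 in winter. The 2 magnocellular markers with means summed to 719 in summer and 656.5 in winter. Of these, OXT was higher in winter (592 in summer and 621 in winter) and PDYN lower (127 and 35.9). Vasopressin (AVP), the other marker of that list, had no means under that symbol. Of 4 astrocyte markers (GFAP, AQP4, S100B and SLC1A3), 3 had lower winter means, and the sum was 36960 in summer and 22010 in winter. The sums were 29480 and 31940 for 4 oligodendrocyte markers, 2025 and 1741 for 4 microglial markers, 432.5 and 399.5 for 4 endothelial markers, 318 and 290.1 for the 2 erythrocyte markers with means, and 1971 and 2040 for the 3 pituitary hormones. In each of these lists single markers went both ways. Among the pituitary hormones, GH1 went from 464 in summer to 1132 in winter, POMC from 1294 to 738 and PRL from 213 to 170. None of the markers with means was at 0. Their part in the values of the members was not tested.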

How the data were processed

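RNA of the supraoptic nucleus was sequenced in 2 winter and 2 summer libraries, grouped by the season in the sample labels. The authors aligned the reads with TopHat to their own assembly and deposited HTSeq counts, raw read counts per gene model, without normalization. These gene models carry no symbols, so the count files were used for depth only. The authors also deposited, per gene symbol, a signal for each season: counts were divided by DESeq size factors and averaged. Another 2 columns hold the authors' comparison (fold changes and p-values) and were not used. Versions of the authors' tools are not given in the sources used here.

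The means have 6 significant digits, and each was solved for 2 whole read numbers, from the amount that a single read adds in either library. A solution was found for 100% of the symbols and a single one for 9901. The table does not state which replicate a solved value belongs to. A second solution appears from lower values on in winter, so tested genes favour low winter means. Symbols with a season mean of 10 or more, as in the study, and a single solution were fitted in edgeR 4.0.16 under R 4.3.3 (glmQLFit with legacy set to FALSE, glmQLFTest, size factors from the steps, season as the only term), with Benjamini-Hochberg adjustment over all of them. The biological coefficient of variation was 0.459. The rule of the study was an unadjusted p of 0.05 and 2-fold. The tests were planned on reads recovered from the season means, because the deposited counts carry no symbols. Alternatives were edgeR's exact test, DESeq2 1.42.0, the legacy dispersion fit, other scalings and filters, a 1.5-fold limit, a pseudocount of 1 and leaving out each library. Scripts were tested on simulated data. Figures were drawn with matplotlib 3.10.9.

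The members and gene lists were chosen with earlier results of these data known. Named were members past the rule or an unadjusted p of 0.05, the 5 highest and 5 lowest season ratios, members with non-overlapping seasons and over 1.5-fold, the L7/L12 stalk, the S18 paralogues, MRPS30, MRPS36 and mitoribosomal proteins with other names. Other members were named as examples of a list after their values were seen. Levels per gene length and sequences were not used here. Of the 76 member symbols of the table, 74 were found among the gene names of the RefSeq annotation of another assembly. Reads shared with near-identical copies such as pseudogenes were not measured. With 2 libraries in each season, the precision of all differences is low, and limits for a count of 0 cover counting error only.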

Additional observations from a re-analysis of the deposited data

How the results depend on the processing

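The members' median season ratio kept its sign under every alternative tried, from -0.21 to -0.02 on the log2 scale, and moved by less than its SD between single libraries. The alternatives did not all cover the same genes. The median of -0.10 was over 67 members, whereas other scalings and left-out libraries used the 52 with single solutions. Those 52 favour low winter means, and their median was -0.16 with all libraries. Over the 51 members with a season mean of 50 or more the median was -0.20, with 16 of them higher in winter. The median of all symbols under that filter was not taken, so this value has no background beside it. With total-count scaling the median of all tested symbols shifted by 0.10, and the members' median was -0.04. The median of all tested symbols also moved with a library left out. It was -0.18 without winter library A (members -0.17) and -0.11 without winter library B (members -0.02). It was -0.16 without summer library A (members -0.21) and 0.12 without summer library B (members -0.095). The members thus lay above all symbols when a winter library was left out and below them when a summer library was. The number of members past the rule of the study (0) was 1 under DESeq2's size factors, where 141 of 7659 symbols passed. It was 1 under total counts, where 168 of 7659 symbols passed, and 1 with the limit at 1.5-fold. In each case the member was MRPL38. The count of all symbols at the 1.5-fold limit was not taken, so that count of members has no background beside it. Without a fold limit, 152 of 7659 symbols passed an unadjusted p of 0.05 in edgeR's quasi-likelihood test and 65 of 7659 in DESeq2. Among low means alone, 53 of 2987 symbols passed that limit in edgeR's test. The fits with a library left out are given above, with the calls over all symbols. Those calls rose as well without a summer library, so a higher count there was not particular to the members. The number past an unadjusted p of 0.05 (1) was 0 with DESeq2, 0 among the 10 members whose means are too low for a second solution (an alternative chosen after seeing the data, with 2987 symbols tested instead of 7659), and 0 to 4 with a library left out. The number past an adjusted p of 0.05 was 0 with each tool, scaling, filter and left-out library. Over all 7659 tested symbols, calls past the rule went from 128 (1.67%) to 60 with DESeq2 and 87 with the legacy dispersion fit. Fewer symbols were tested among low means, where 53 of 2987 passed, and at a season mean of 50 or more, where 55 of 4073 passed.

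For single members, 162 of 174 alternative values over 15 genes kept their direction and their side of the unadjusted p threshold. Among these genes only MRPL38 was past that threshold in edgeR's quasi-likelihood fit to all libraries, so keeping that side says little for the others. Many of the alternatives also refit the same libraries under another scaling, filter or tool. Apart from MRPL38 under DESeq2, every departure came from a fit with a library left out. The direction reversed with a library left out for MRPL28 (-2.03 to 0.056), MRPL12 (-0.10 to 0.57) and MRPS36 (-0.43 to 0.038), and the cause was not tested. The number of members whose seasons did not overlap was 16 to 19 of the 52 over the scalings, against 29.3% to 30.5% of all tested symbols. No paired analysis was possible because each camel was slaughtered in a single season, so no animal gave libraries of both. Replicate number 2, which both seasons share, does not mark a pair. The comparison per gene length was not run for want of lengths.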

Other observations

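MRPL46 and MRPS11 were the only pair of members that are neighbours in the RefSeq annotation. Their season ratios lay on opposite sides of 0, at log2 values of -0.22 for MRPL46 and 0.96 for MRPS11. MRPL46 held 69 to 104 reads in each library and MRPS11 held 2 to 19.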
